A study of Homo sapiens with 78 samples.

Results

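The Jurkat wells with little replication histone RNA were compared by how much mitotic RNA they held. Jurkat is a T cell leukaemia line, here clone E6-1, and each library was made from a single sorted cell. The series held 78 such libraries, of Jurkat and of the A375 melanoma line, prepared with 1 of 2 stranded total RNA kits of the SMARTer family, Pico Input v2 (kit 634413) and SMART-Seq Stranded (kit 634444). All Jurkat cells carried the same treatment: growth in RPMI with 10% serum, gating of live cells by 7-AAD and anti-CD81, and sorting into lysis solution. Members were chosen by measured RNA: a member was any Jurkat well in which the replication-dependent histone genes took under 1% of the estimated counts, and 24 of the 36 Jurkat wells met that rule, 12 for each kit. A mitotic score was then the summed TPM (a transcript level scaled to library total and corrected for transcript length) of 8 genes: CCNB1, CDC20, PLK1, AURKA, CENPF, CENPE, TPX2 and HMMR. In each kit the 6 wells above the median score were called high and the 6 below it low. The labels name no separate cultures, nor say whether all wells came from 1 sort, so every p-value below measures the spread among these cells and libraries only. Cells had no cell cycle label of their own, no DNA content was given, and a high score describes RNA and not a phase.

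The values that chose the wells are a description. The nearest wells to the histone limit lay at 0.582% inside and 1.44% outside for kit 634413, and at 0.632% inside and 2.27% outside for kit 634444, so no well sat close to it. For kit 634413 the low wells had scores of 3.18, 28.1, 48.2, 53.3, 58.6 and 77.8 TPM, and the high wells had 113, 153, 334, 1171, 1270.1 and 1560.2 TPM. For kit 634444 the low wells had scores of 34.5, 38.9, 75.2, 84.2, 118 and 169 TPM, and the high wells had 176, 278, 797, 877, 897 and 1227 TPM. The median therefore ran between wells that were nearly alike in kit 634444, 169 against 176 TPM. In kit 634413 it ran between 77.8 and 113 TPM. The wide gap lay higher, between 334 and 797 TPM: 7 wells, 3 of kit 634413 and 4 of kit 634444, stood above it, and the other 17 lay below. The 12 histone-high wells, which are no members, scored between 61.8 and 324 TPM and none entered the upper range.

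**Figure D1:**
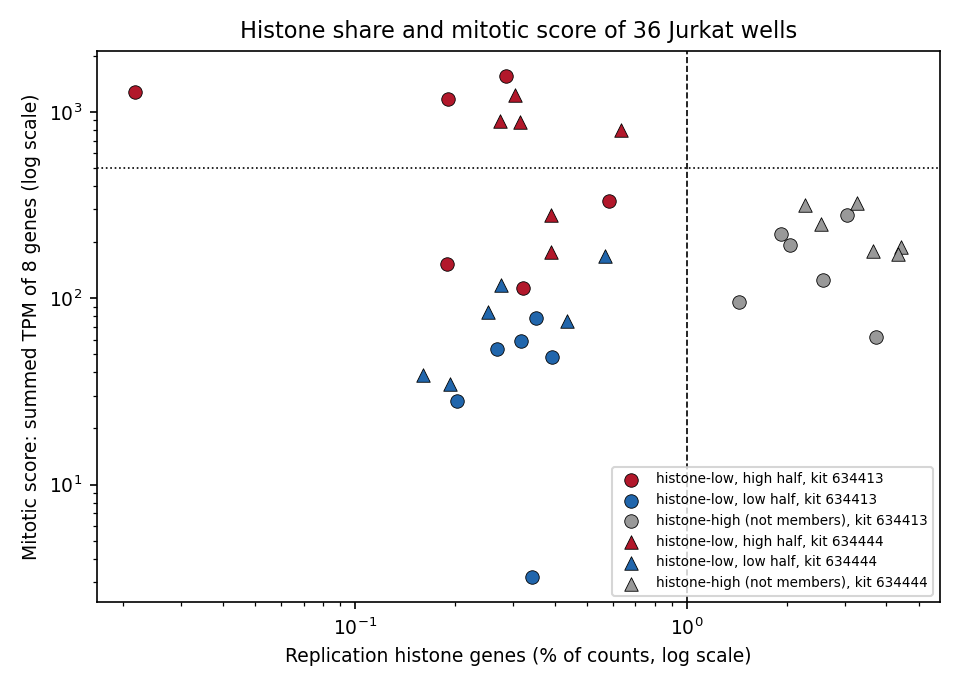
Histone share (percent of counts, log scale) against mitotic score (summed TPM of 8 genes, log scale) of the 36 Jurkat wells, with circles for kit 634413, triangles for kit 634444, red for high wells, blue for low wells and grey for the histone-high wells. The dashed line marks a share of 1% and the dotted line a score of 500 TPM, and the 7 wells above that score lie at 797 to 1560.2 TPM with histone shares of 0.0218% to 0.632%.

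As background, a cell that prepares to divide builds its transcripts in waves. Genes for DNA replication, the MCM helicase among them, are driven by E2F factors around the start of DNA synthesis, and replication histone mRNA is abundant only while DNA is copied. Genes for chromosome condensation, the spindle, the kinetochore and cytokinesis come later, through the MuvB complex with B-MYB and FOXM1, which act at promoters that hold a CHR element (cell cycle genes homology region) and often CCAAT boxes bound by NF-Y. Many of their proteins are removed by the anaphase-promoting complex as mitosis ends.

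Depth and identity were checked first. The 24 wells held between 413959 and 1313480 estimated counts. For kit 634413 the low wells were the deeper ones, with a median of 1012150 counts against 887000 in the high wells, while for kit 634444 the high wells were deeper, 1090780 against 547357. CD3D and CD3E, signalling chains of the T cell receptor complex, were found in every member, CD3D at 38.4 to 393 TPM in the high and 49.3 to 365 TPM in the low wells, and CD3E at 37.9 to 232 and 72.2 to 225 TPM. LCK, the kinase that acts first below the receptor, stood at 8.17 to 191 TPM in the high and 8.77 to 212 TPM in the low wells. The 12 melanoma line markers, MLANA, PMEL and TYR among them, summed to at most 10 counts in any high well and at most 14 in any low well, with a median of 0 in both. These 3 T cell genes were thus present in every member, and markers of the other sorted line were at or near 0.

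Within the score all 8 genes ran higher in the high wells, which the choice of wells fixes. PLK1, the polo-like kinase, was listed at 0 in 10 of the 12 low wells and reached 9.7 TPM at most there, against a median of 133 TPM and a highest value of 386 TPM in the high wells. CCNB1, the cyclin partner of CDK1, had a median of 3.8 TPM in the low and 139 TPM in the high wells. CENPF, a kinetochore protein made from G2 on, was found in every well, at a median of 13.7 TPM against 114 TPM. CENPE was the weakest contributor, with 4.4% of the summed score, and CCNB1 the strongest with 18.7%. In the 7 wells above the gap, CCNB1 lay at 124 to 302 TPM, PLK1 at 117 to 386 TPM and TPX2, the spindle assembly factor, at 101 to 179 TPM, each above every one of the 17 other wells.

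The first question was which genes outside the score differed between the 12 high and the 12 low wells. Of 10679 genes tested, with kit as a covariate, 1 gene passed at a Benjamini-Hochberg adjusted p under 0.05 by edgeR's quasi-likelihood test, which is 0.00936% of those tested, and 394 genes had an unadjusted p under 0.05. That gene was KIF20A, a kinesin of the central spindle needed for cytokinesis (chromosome 5, 138178719 to 138187723, plus strand, GRCh38). It was listed at 0 TPM in all 12 low wells. In the high wells of kit 634413 it stood at 0, 0, 17.3, 85.9, 104 and 185 TPM, and in those of kit 634444 at 4.91, 0, 50.02, 42.01, 94.6 and 94.9 TPM, in order of score. The groups overlapped only at 0, where 3 high wells lay, and the 7 wells above the gap held 42.01 to 185 TPM. Taken against a floor of 3 counts over all low wells together, KIF20A was at least 515-fold higher in the high wells as a share of counts (edgeR adjusted p = 0.000778). With no counts in the low wells, it passed the filter on low counts (5 or more in 25% of wells) through the high wells alone, so a gene with its counts there had to differ. Its call was lost in kit 634413 alone (adjusted p = 0.174) and with limma on log2(TPM + 1) (adjusted p = 0.0926), and the adjusted p ranged from 5.1e-09 to 0.174 over the alternatives in which it was tested.

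**Figure D2:**
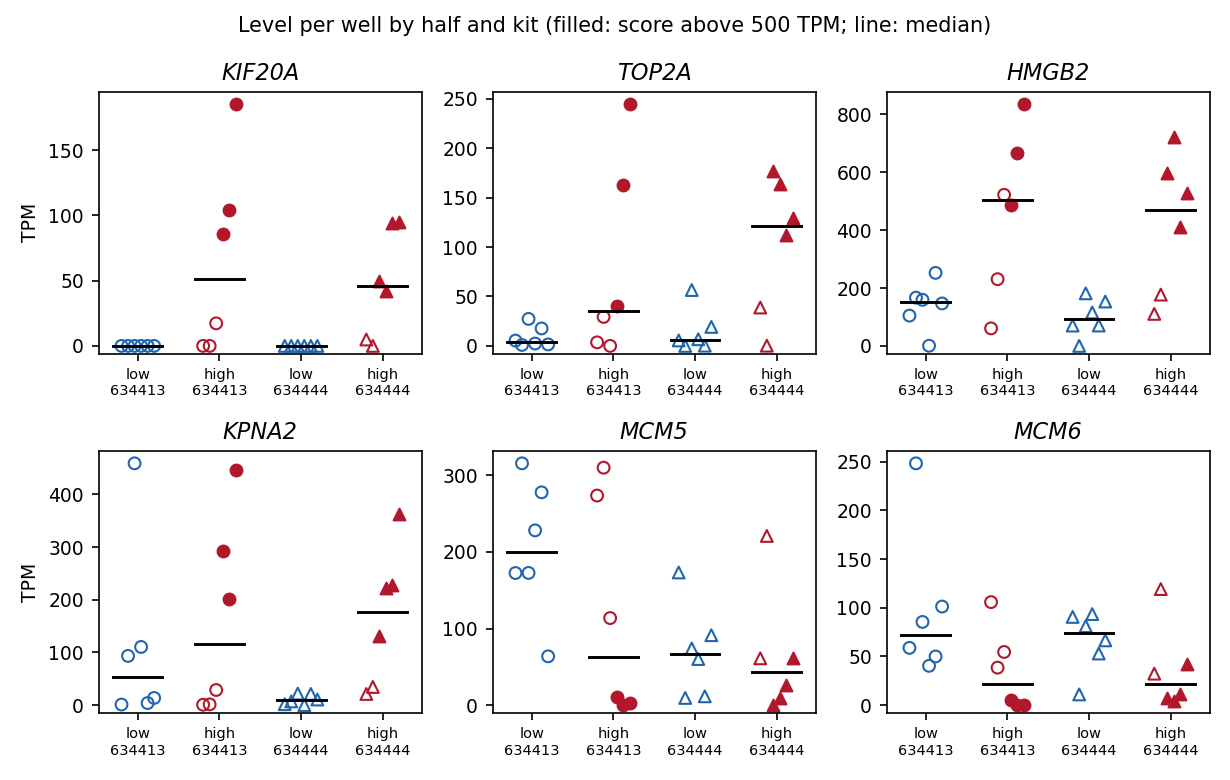
Level in TPM of KIF20A, TOP2A, HMGB2, KPNA2, MCM5 and MCM6 in each of the 24 wells, by score group and kit, with filled symbols for the 7 wells with a score above 500 TPM and a line at each median of 6 wells. KIF20A is at 0 in every low well and MCM6 lies at 0 to 42.1 TPM in the filled wells.

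Beyond the call, the direction of other mitotic genes was counted. Of the 12 mitotic markers outside the score (AURKB, BIRC5, BUB1, CCNB2, CDK1, KIF11, KIF20A, KIF23, TOP2A, UBE2C, DLGAP5 and NUSAP1), all 12 had a log2 fold change above 0, from 1.62 to 9.95, and 10 had an unadjusted p under 0.05. Among all genes tested 2.07% had an unadjusted p under 0.05 with a higher level in the high wells, 1.62% with a lower level, and 47.6% had a log2 fold change above 0. Counts of list members below are set against those shares, and list members with an unadjusted p only are not calls.

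The spindle and motor genes stood furthest from these shares. All 40 of the 41 listed genes that could be tested had a log2 fold change above 0, with a median of 2.41 against -0.04 over all genes, and 31 had an unadjusted p under 0.05. With KIF20A placed at its bound the median was also 2.41. ASPM, a spindle pole protein, had a median of 27.9 TPM in the high wells and 0.6 TPM in the low wells, with ranges of 0 to 148 and 0 to 11.52 TPM, a log2 fold change of 4.17 ± 0.91 (SE) and an adjusted p of 0.0914 by edgeR. PSRC1, which binds spindle microtubules, was at 0 in 10 low wells and reached 166 TPM in a high well (6.39 ± 1.37, edgeR adjusted p = 0.0914). Its level in the remaining low wells was at most 2.21 TPM, so it passed the filter on low counts mainly through the high wells. KIF11, the motor that pushes spindle poles apart, had medians of 22.3 and 1.1 TPM (3.07 ± 0.75, edgeR adjusted p = 0.143). The high and low wells overlapped for each of these 3 genes.

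Kinetochore, centromere and chromosomal passenger genes were mixed. Of 42 tested, 30 had a log2 fold change above 0, the median was 0.73, 12 had an unadjusted p under 0.05 in the higher direction and none in the lower. The chromosomal passenger complex supplied 3 of the 4 smallest p-values. INCENP, its scaffold, had medians of 67.2 and 5.1 TPM (3.38 ± 0.78, edgeR adjusted p = 0.0914). CDCA8, another subunit, had medians of 21.5 and 0 TPM (4.68 ± 1.18, edgeR adjusted p = 0.167), and AURKB, its kinase, had 62.9 and 0 TPM (4.45 ± 1.15, edgeR adjusted p = 0.181). CENPA, the centromeric histone H3 variant, had 22.7 and 0 TPM (4.94 ± 1.35, edgeR adjusted p = 0.26). With medians of 0 in the low wells, CDCA8, AURKB and CENPA could pass the filter on low counts through the high wells alone. At the other end stood CENPP, a subunit of the constitutive centromere network picked out for its value, at -1.90 (unadjusted p = 0.189).

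Mitotic entry and exit regulators outside the score gave no call between the groups. Of 17 entry kinases, cyclins and phosphatases tested, 13 had a log2 fold change above 0, with a median of 0.91, and 6 had an unadjusted p under 0.05, all higher. CCNB2, the second B-type cyclin, had medians of 107 and 7.5 TPM (3.40 ± 0.85), GTSE1, a G2 and S phase regulator of p53, had 14.1 and 0.2 TPM (4.42 ± 1.14), and neither passed adjustment. CCNF and CDKN3 followed with unadjusted p-values of 0.00837 and 0.0181. Of 28 genes of the spindle checkpoint and the anaphase-promoting complex, 18 had a log2 fold change above 0, with a median of 0.64, and 6 had an unadjusted p under 0.05, all higher. These included ESPL1, which is the separase that cuts cohesin (4.63 ± 1.27), the complex's RING subunit ANAPC11 (3.82 ± 1.32), PTTG1, the securin that holds separase (2.34 ± 0.88), and UBE2S, which extends ubiquitin chains for the complex (1.41 ± 0.54).

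Among 24 genes of chromosome condensation and cohesion, 20 had a log2 fold change above 0, with a median of 0.44, and 8 had an unadjusted p under 0.05 in the higher and 1 in the lower direction. TOP2A, the topoisomerase that untangles sister DNA, had medians of 76.2 and 5.5 TPM (3.64 ± 0.81, edgeR adjusted p = 0.0914). HMGB2, an abundant chromatin protein, stood at 60.5 to 836 TPM with a median of 505 in the high wells and at 0 to 252 TPM with a median of 131 in the low wells (1.96 ± 0.52, edgeR adjusted p = 0.227). MKI67, the coat of mitotic chromosomes, had medians of 93.6 and 47.6 TPM (1.47 ± 0.48), and RAD21, the cohesin subunit that separase cuts, had 234 and 134 TPM (0.81 ± 0.25).

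**Figure D3:**
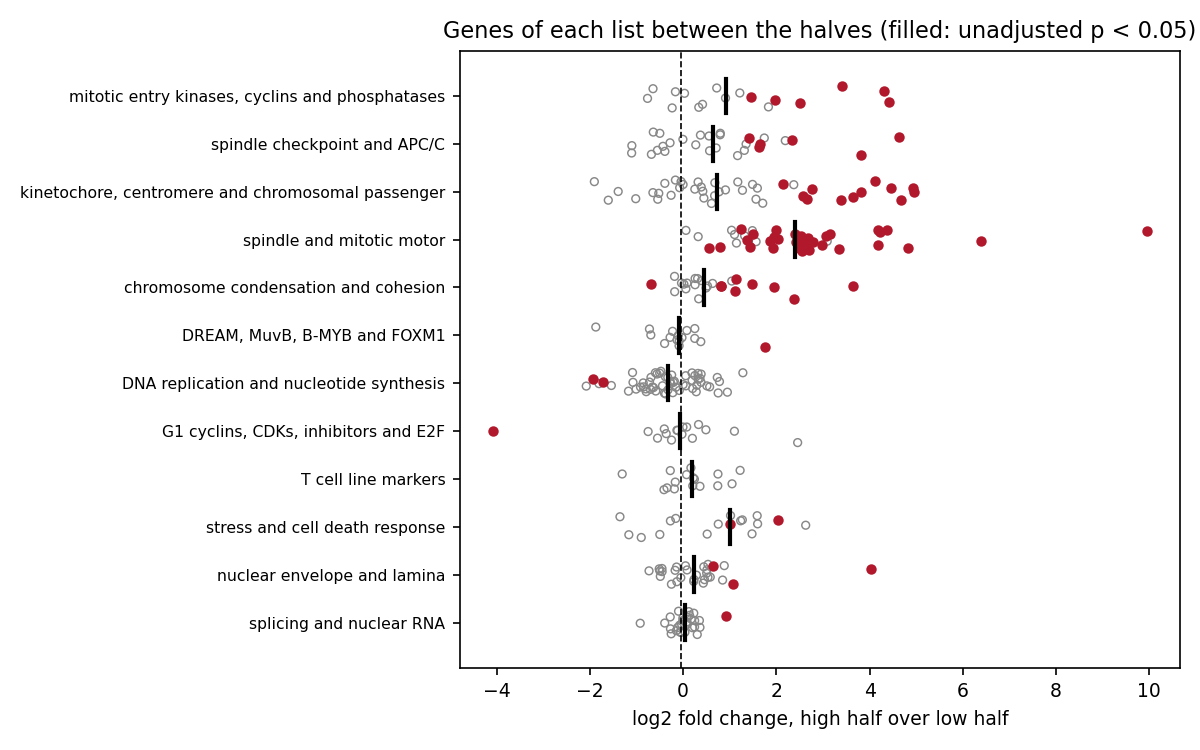
Log2 fold change between high and low wells for every tested gene of 12 lists, 1 point per gene, filled red where the unadjusted p was under 0.05, with a black bar at each list's median and a dashed line at the median of all genes. All 40 spindle and motor genes lie to the right of 0, and the replication list is centred at -0.32; the point at 9.95 is KIF20A, a fitted value against wells at 0.

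The regulators of these promoters showed no common direction. Of 16 genes of the DREAM and MuvB complexes, B-MYB and FOXM1, 5 had a log2 fold change above 0 and the median was -0.09. FOXM1 had the smallest p, with medians of 40.3 and 11.3 TPM (1.75 ± 0.85, unadjusted p = 0.0468), and no other member had an unadjusted p under 0.05. TFDP1 (-0.72 ± 0.51), LIN52 (-1.87 ± 1.87) and RBBP4 (-0.23 ± 0.24) followed, with unadjusted p-values of 0.168, 0.323 and 0.362.

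Replication genes leaned weakly the other way. Of 59 tested, 38 had a log2 fold change below 0, against 5601 of all 10679 genes tested, and the median was -0.32. None had an unadjusted p under 0.05 in the higher direction and 2 did in the lower, against 1.62% of all genes. MCM4, a subunit of the replicative helicase, had medians of 42.6 TPM in the high and 268 TPM in the low wells (-1.73 ± 0.63, unadjusted p = 0.00928), and PRIM1, the primase, had 12.8 and 61.7 TPM (-1.94 ± 0.91, unadjusted p = 0.0396). The helicase subunit MCM6 (-1.08 ± 0.57) and CLSPN, the replication checkpoint adaptor claspin (-1.17 ± 0.64), had unadjusted p-values of 0.0657 and 0.0755. In kit 634444 alone the list's median was 0.04, with 31 of 59 genes above 0, against -0.52 in kit 634413 alone. With blocks of 8 index numbers in the fit the median was -0.15, with 26 of 59 genes above 0. Of the 6 genes MCM2 to MCM7, 2 were above 0 in that fit. Of 16 genes of G1 cyclins, their kinases, inhibitors and E2F factors, the only one with an unadjusted p under 0.05 was CCNE2, a G1/S cyclin. It had a median of 0 TPM in the high and 10.3 TPM in the low wells (-4.09 ± 1.39, unadjusted p = 0.00549). The next by p were E2F8, an atypical E2F repressor, MYC and the kinase inhibitor CDKN2D, with log2 fold changes of 2.46, -0.55 and 1.10.

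Because a median can split wells that are nearly alike, the score was also entered as a continuous value, log2(score + 1) centred within each kit, an alternative listed with the main design. With this term 36 genes passed at an adjusted p under 0.05 by edgeR, 32 higher with the score (0.3% of genes tested) and 4 lower (0.0375%). The wells, the score and the filter on low counts were the same as before, so these calls are not independent of the comparison above. A gene could pass that filter through high-scoring wells alone, as KIF20A did, and such a gene had to rise with the score. By list, 12 of the 40 spindle and motor genes passed, 7 of the 42 kinetochore and passenger genes, 3 of the 17 entry genes, 3 of the 28 checkpoint genes and 3 of the 24 condensation genes, all higher, along with SUN2, a nuclear envelope protein that anchors the cytoskeleton. No gene of the replication, DREAM, G1, T cell, stress or splicing lists passed. KIF20A rose 2.53 ± 0.24 on the log2 scale for each doubling of the score, DLGAP5, a kinetochore fibre protein, 1.42 ± 0.24, ASPM 1.05 ± 0.18, TOP2A 0.79 ± 0.15, MKI67 0.54 ± 0.10 and TUBB4B, a beta tubulin, 0.48 ± 0.11. The passenger genes CDCA8 and INCENP did not pass here, with edgeR adjusted p-values of 0.16 and 0.0964. The genes DLGAP5, MKI67 and TUBB4B are named after their values were seen, MKI67 also by its list.

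The 7 wells above the gap are described by well. The summed TPM of the spindle and motor list without tubulins and stathmin was 2419, 5840 and 4319 TPM in wells 18, 17 and 8 of kit 634413, and 2382, 2075, 2265 and 2587 TPM in wells 16, 5, 18 and 2 of kit 634444. In the other 17 wells it lay between 285 and 1519.9 TPM, with a median of 662. The 7 wells were separate from the others for this sum and, by gene, for 6 of the 40 spindle genes: KIF11, KIF14, KIF20A, ASPM, KNSTRN and TUBB4B. Over all genes tested 0.0655% had the 7 wells wholly above the other 17, and these were the same 6 genes and FAM72D, whose near-identical copies share its reads. A gene could pass the filter on low counts through these 7 wells alone. In none (0%) were the 7 wells wholly below. The 5 high wells below the gap had spindle sums of 373 to 1519.9 TPM, and 4 of them lay inside the 285 to 1495 TPM of the low wells.

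The same 7 wells held little MCM2 to MCM7 mRNA, the 6 subunits of the replicative helicase, a group picked out after its values were seen. Their summed level was 345, 52.7 and 215 TPM in wells 18, 17 and 8 of kit 634413 and 103, 267, 197 and 328 TPM in wells 16, 5, 18 and 2 of kit 634444. The other 17 wells had a median of 966 TPM and a highest value of 1847 TPM. The ranges overlapped at the bottom, where low wells 17 and 9 of kit 634444 stood at 114 and 323 TPM with low spindle sums of 349 and 505 TPM as well. MCM5 was at 10.9, 0 and 2.56 TPM in the upper 3 wells of kit 634413 and at 0.2 to 61.98 TPM in the upper 4 of kit 634444. The 17 others had a median of 172 TPM and a range of 9.4 to 316 TPM, which overlapped. UNG, which removes uracil from DNA, was at 0 to 24.4 TPM in the 7 wells. In the others it had a median of 64.6 TPM and an overlapping range of 1.96 to 309 TPM. The histone-high wells, with active histone mRNA, had MCM sums of 507 to 1624 TPM and spindle sums of 951 to 1936 TPM.

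**Figure D4:**
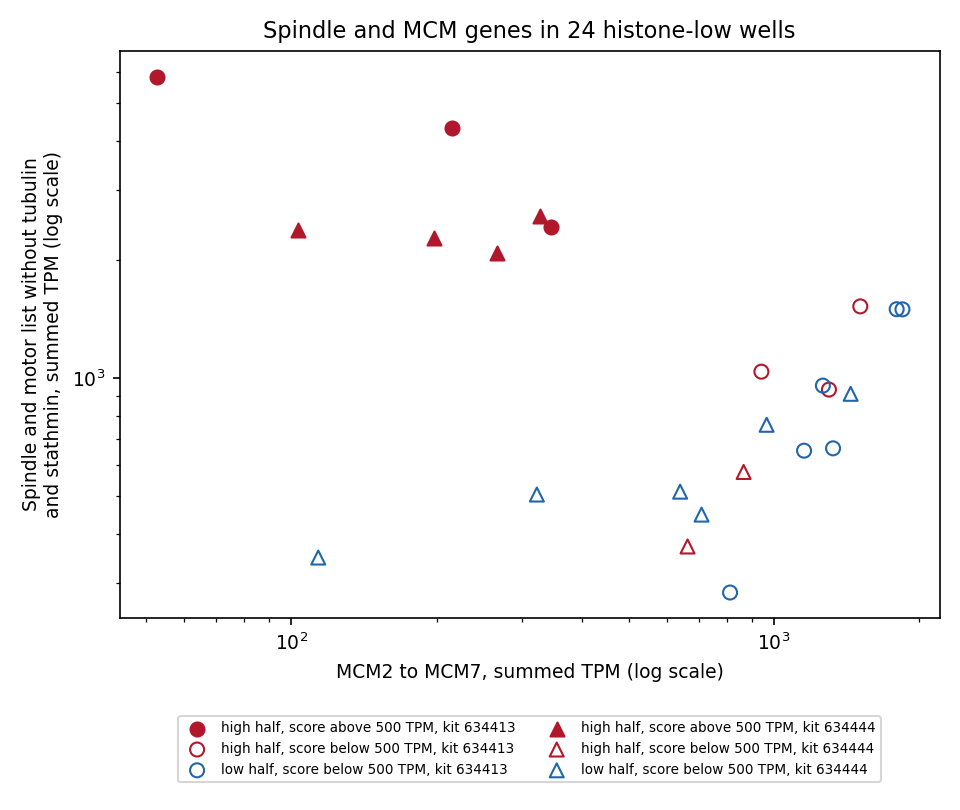
Summed TPM of MCM2 to MCM7 against summed TPM of the spindle and motor list without tubulins and stathmin, both on log scales, for the 24 wells. The 7 filled wells lie at 2075 to 5840 TPM of spindle genes and 52.7 to 345 TPM of MCM genes, and the 17 open wells at 285 to 1519.9 and 114 to 1847 TPM.

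A comparison of the 7 wells with the other 17 was added after the scores were seen and is given as an alternative, since its limit of 500 TPM was set on them. By edgeR 38 genes passed as higher (0.356% of genes tested) and 7 as lower (0.0655%). A gene could pass the filter on low counts through the 7 wells alone, and a gene that did so had to differ. Library measures were compared at the same limit by the exact permutation test within kit, though none of 9 measures passed adjustment over them. Their nuclear rRNA share is of Kallisto estimated counts and is not the paper's far lower percentage of mapped ribosomal reads. The nuclear rRNA share was 12% ± 1.10 (SD, n = 7) against 14.9% ± 2.28 (SD, n = 17; exact p = 0.0062, adjusted p = 0.0558) and the protein-coding share 74.2% ± 0.788 against 71.6% ± 2.37 (exact p = 0.0132, adjusted p = 0.0594). Nuclear copies of mitochondrial genes took 2.04% ± 0.57 against 2.49% ± 0.328 (exact p = 0.0202, adjusted p = 0.0607), and genes with at least 10 counts numbered 7741 ± 1260.3 against 6700.4 ± 1016 (exact p = 0.0425, adjusted p = 0.0957). Their part in the gene differences was not tested. The higher genes included 15 of the 40 spindle and motor genes, 9 kinetochore and passenger genes and 5 condensation genes. Outside these, MALAT1 of the splicing and nuclear RNA list also passed as higher (1.30 ± 0.22, edgeR adjusted p = 0.00106). The lower ones included MCM3, MCM4, MCM5, MCM6, CLSPN and UNG, with log2 fold changes of -1.97 ± 0.42, -3.15 ± 0.76, -3.74 ± 0.82, -3.16 ± 0.66, -3.11 ± 0.76 and -4.12 ± 0.91. Of all genes tested, 2.46% had an unadjusted p under 0.05 as higher and 1.54% as lower, against 0 and 11 of the 59 replication genes. Of its 45 calls, 23 were also among the 36 of the continuous score. The number of calls fell to 18 without well 8 of kit 634413, to 26 without well 17 of that kit, to 25 without well 16 and to 29 without well 2 of kit 634444, and to 11 with blocks of 8 index numbers in the fit. The 6 MCM genes all had log2 fold changes below 0 in each kit alone, with medians of -3.67 in kit 634413 and -1.66 in kit 634444. With the blocks no replication gene was called and 9 of 59 had an unadjusted p under 0.05 as lower, while the 6 MCM genes were again all below 0, with a median of -2.25 against -2.56 without the blocks.

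**Figure D5:**
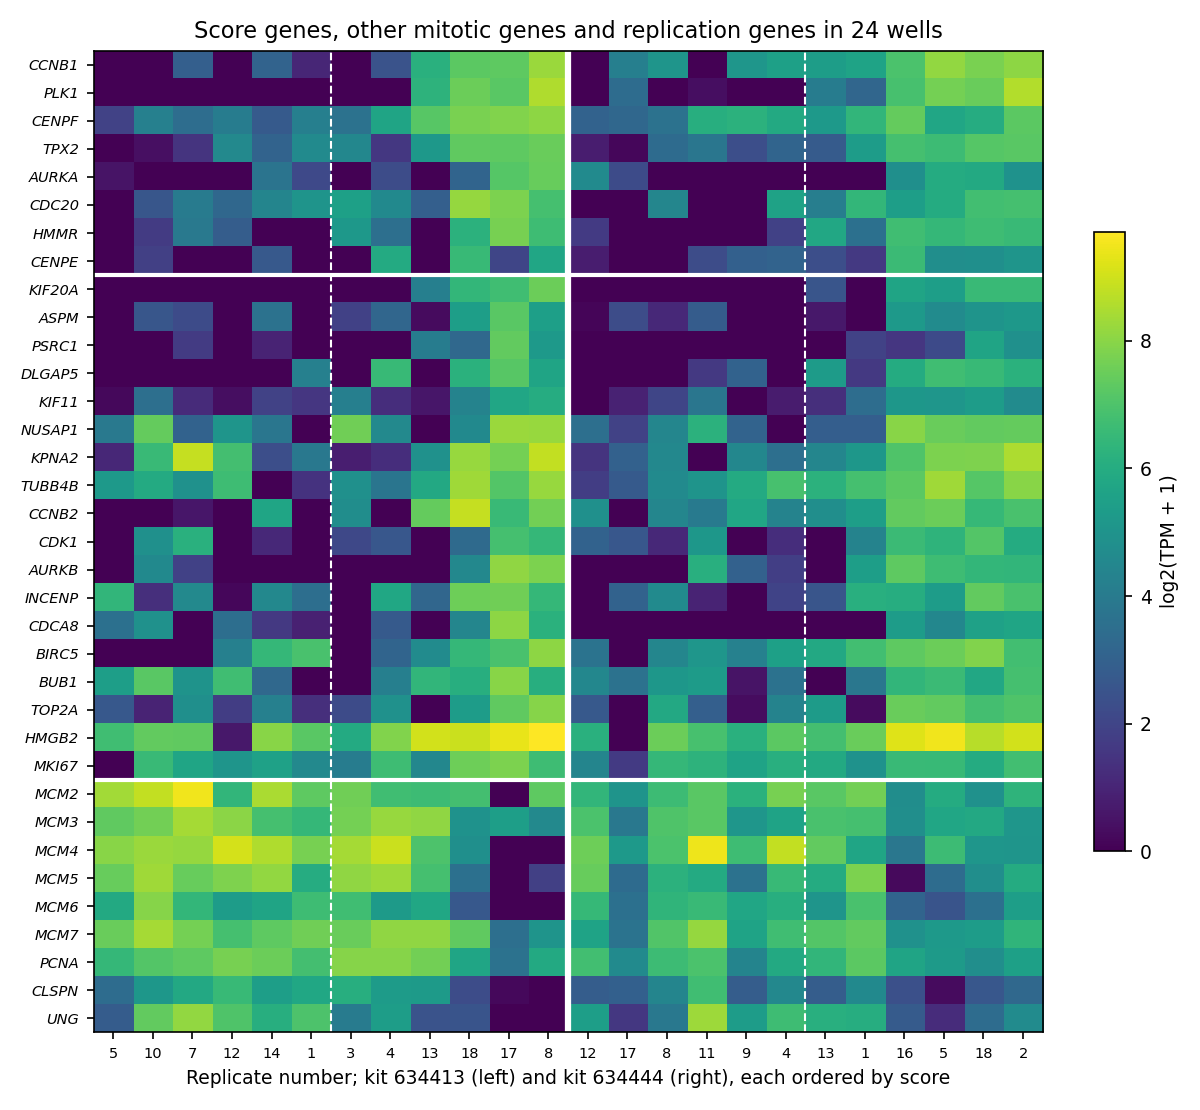
log2(TPM + 1) of the 8 score genes (top), 18 other mitotic genes (middle) and 9 replication genes (bottom) in the 24 wells, ordered by score within kit 634413 (left) and kit 634444 (right), with dashed lines at the median score. The rightmost 3 columns of kit 634413 and 4 of kit 634444 are the wells above 500 TPM, where KIF20A stands at 42.01 to 185 TPM and MCM5 at 0 to 61.98 TPM.

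Promoter windows from RefSeq (GRCh38.p14, 250 bases before to 50 after the start) were searched for 3 motifs on both strands: the CHR (TTTGAA or TTCGAA), the CCAAT box (CCAAT) and an E2F site (TTTGGCGC or TTTCGCGC). KIF20A is shown as the called gene, CCNB2, KIF11 and INCENP as named genes with both a CHR and CCAAT boxes, and MCM6 as a helicase gene of the opposite lean. Capitals mark every match on either strand, so a CCAAT box on the other strand reads ATTGG and a CHR there reads TTCAAA.
KIF20A: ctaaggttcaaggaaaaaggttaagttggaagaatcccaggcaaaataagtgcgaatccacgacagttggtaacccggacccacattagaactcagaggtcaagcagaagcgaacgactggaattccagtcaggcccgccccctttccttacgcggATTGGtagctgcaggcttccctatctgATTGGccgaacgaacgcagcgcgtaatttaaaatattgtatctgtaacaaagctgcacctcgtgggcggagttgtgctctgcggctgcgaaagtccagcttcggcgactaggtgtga
CCNB2: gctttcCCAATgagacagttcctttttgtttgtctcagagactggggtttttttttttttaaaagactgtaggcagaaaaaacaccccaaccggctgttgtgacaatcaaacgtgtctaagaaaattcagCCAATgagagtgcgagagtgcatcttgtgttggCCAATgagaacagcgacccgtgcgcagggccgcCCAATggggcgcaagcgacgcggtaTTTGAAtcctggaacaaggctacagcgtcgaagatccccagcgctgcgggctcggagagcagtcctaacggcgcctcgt
KIF11: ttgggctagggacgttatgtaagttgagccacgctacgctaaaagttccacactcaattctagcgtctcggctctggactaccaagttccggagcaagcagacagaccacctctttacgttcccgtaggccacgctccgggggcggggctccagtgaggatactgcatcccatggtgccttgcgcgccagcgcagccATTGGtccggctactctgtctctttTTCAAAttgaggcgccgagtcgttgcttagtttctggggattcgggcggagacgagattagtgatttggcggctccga
INCENP: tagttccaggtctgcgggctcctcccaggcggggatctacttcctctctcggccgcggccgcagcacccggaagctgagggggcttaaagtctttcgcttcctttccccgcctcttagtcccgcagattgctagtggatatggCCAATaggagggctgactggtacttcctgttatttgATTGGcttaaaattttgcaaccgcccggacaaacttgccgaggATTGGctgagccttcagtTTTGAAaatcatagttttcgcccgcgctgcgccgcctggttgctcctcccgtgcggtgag
MCM6: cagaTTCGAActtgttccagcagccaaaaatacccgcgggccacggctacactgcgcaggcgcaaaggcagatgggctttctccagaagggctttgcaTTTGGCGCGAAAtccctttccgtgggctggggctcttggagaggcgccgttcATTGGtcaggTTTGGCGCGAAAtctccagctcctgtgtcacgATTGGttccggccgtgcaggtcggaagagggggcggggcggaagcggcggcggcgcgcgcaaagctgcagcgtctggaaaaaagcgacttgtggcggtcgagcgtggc
These windows lie at chr5:138178862-138179161 (plus strand), chr15:59104896-59105195 (plus), chr10:92592880-92593179 (plus), chr11:62123761-62124060 (plus) and chr2:135876394-135876693 (minus). KIF20A held CCAAT boxes 94 and 67 bases before the start and none of the CHR letters searched. CCNB2 held a CHR 29 bases before the start and CCAAT boxes 244, 120, 87 and 54 bases before it. KIF11 had a CHR at 28 and a CCAAT box at 53 bases before the start, and INCENP a CHR at 10 with CCAAT boxes at 107, 71 and 28. MCM6 held 4 E2F matches, overlapping in pairs 152 and 148 and again 90 and 86 bases before the start, with CCAAT boxes at 100 and 58 and a CHR match at 246.

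Of the 20 named genes of the 5 mitotic lists, 18 had a window, of which 13 (72.2%) held a CHR, 18 a CCAAT box and none an E2F match of these letters. Among all 35116 windows 16.4% held a CHR, 34.6% a CCAAT box, 6.38% both and 1.15% an E2F match. Among the 7960 windows of genes tested here the shares were 11.04%, 37.7%, 4.82% and 2.29%. The whole spindle and motor list gave 28 of 38 windows (73.7%) with a CHR, 24 with both motifs and 3 with an E2F match. Of MCM2 to MCM7, 4 had a window, and all 4 held an E2F match, 3 a CCAAT box and 1 a CHR. Of the 7 genes called lower at the 500 TPM limit, 4 had a window. All 4 held a CCAAT box, 2 an E2F match and 1 a CHR, and CLSPN and UNG held no E2F match of these letters. Of the named genes in the remaining lists, 22 had a window and 5 (22.7%) held a CHR. These are letter matches and were not tested as sites.

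The spindle and motor list was also counted in each kit. In kit 634413 alone 37 of 38 spindle and motor genes tested had a log2 fold change above 0, with a median of 1.98, 17 at an unadjusted p under 0.05 and no call, and in kit 634444 alone 39 of 40 did, with a median of 1.97, 26 at an unadjusted p under 0.05 and 4 calls. Over all genes, none passed in kit 634413 alone and 8 did in kit 634444 alone. A kit by score group interaction, which tests whether the difference itself differed, passed for 0 genes by edgeR, with 787 genes at an unadjusted p under 0.05, and for 62 by DESeq2. For the score groups in simulated data, drawn with edgeR's own dispersions, DESeq2 made 48 false calls and edgeR 4. Those data held no interaction, so they cannot say whether the 62 calls are false. INCENP had log2 fold changes of 3.02 and 3.80 in the kits, ASPM 4.15 and 4.27, and TOP2A 3.01 and 4.36. CDCA8 had 2.78 in kit 634413 and was at 0 in all 6 low wells of kit 634444.

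Outside cell division no list gave a call between the groups, though MALAT1 passed at the 500 TPM limit and SUN2 with the continuous score. None of the 16 T cell genes had an unadjusted p under 0.05 and their median log2 fold change was 0.19. TRAC and TRBC2, which encode T cell receptor constant regions, had 1.22 ± 0.96 and 1.05 ± 0.80, LAT, the adaptor below the receptor, had -1.31 ± 0.82, and CD28, the co-stimulatory receptor, 0.75 ± 0.46. Of 17 stress and cell death genes tested the median was 0.999. The list's median was 0.34 in kit 634413 alone, 0.66 in kit 634444 alone and 0.34 at the 500 TPM limit. Between the groups 2 of the 17 had an unadjusted p under 0.05, both higher: HSPA5, the chaperone of the endoplasmic reticulum (2.04 ± 0.70), and HSPH1, a heat shock chaperone (1.0 ± 0.44). JUN (2.63 ± 1.34) and ATF4 (0.52 ± 0.26) lay next. In the nuclear envelope list SUN2 had medians of 38.7 and 0.1 TPM (4.02 ± 1.04, edgeR adjusted p = 0.181), followed by LBR (1.06 ± 0.43), NUP50 (0.64 ± 0.32) and LMNB1 (0.51 ± 0.31). In the splicing and nuclear RNA list the median was 0.04, and MALAT1, the abundant nuclear long non-coding RNA, had medians of 1488 and 760.2 TPM (0.92 ± 0.25, edgeR adjusted p = 0.233), while SNRPB, SNRNP200 and SF3B1 had 0.36, 0.23 and 0.20. VIM, the only melanoma list gene that passed the filter and a gene Jurkat also expresses, had 0.07 ± 0.27.

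The libraries themselves were compared over 9 measures by an exact two-sided permutation test of wells within kit, over 853776 arrangements, with Benjamini-Hochberg adjustment over the 9. The nuclear rRNA share was 13.02% ± 2.01 (SD, n = 12) in the high and 15.1% ± 2.37 (SD, n = 12) in the low wells (exact p = 0.0285, adjusted p = 0.196). It is the share of Kallisto estimated counts on rRNA and rRNA pseudogene entries. The paper's ribosomal percentages for these cells are far lower, but are of reads mapped with STAR and not comparable with it. The share on protein-coding genes was 73.3% ± 2.06 and 71.3% ± 2.28 (SD, n = 12 each, exact p = 0.0435, adjusted p = 0.196). Genes with at least 10 counts numbered 7193 ± 1478 and 6815 ± 770.2 (SD, n = 12 each, exact p = 0.343, adjusted p = 0.515). Total counts, the shares of long non-coding RNA, miscellaneous RNA, snRNA and snoRNA, nuclear copies of mitochondrial genes and ribosomal protein genes had adjusted p-values between 0.366 and 0.823. By index number, 4 of the low wells of kit 634444 came from indices 81 to 88, which held no high well, while each other block of 8 held wells of both groups. The part of depth and of index block in the differences above was not tested apart, beyond the fits that carry them as terms. With log2 total counts or with index block in the fit, KIF20A was again the only call, and the median of the spindle list was 2.10 and 2.25.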

How the data were processed

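Single sorted cells were made into stranded total RNA libraries, read in pairs on a NextSeq 500. The authors trimmed reads with cutadapt and quantified them with Kallisto v0.43.1 in strand-aware mode on Ensembl v91 transcripts, and STAR 2.5.3 and hg38 also stand in the submitters' processing notes. The deposited tables hold an estimated count and a TPM per transcript for each well, which were summed by gene with GENCODE 44 identifiers. The estimated counts deposited by the authors were rounded for the models, since kallisto gives fractions. Depth of 413959 to 1313480 counts per well limits low genes, and reads carried no molecular identifiers in these values.

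Genes were kept where 25% or more of wells held 5 or more counts, and tested by edgeR 4.0.16 (quasi-likelihood, TMM, kit as covariate) in R 4.3.3, leaving out score and histone genes, with adjustment over all genes. DESeq2 1.42.0 and limma 3.58.1 (log2(TPM + 1)) were alternatives. Scripts were tested on simulated data with 200 changed genes and groups of 12 against 12. There edgeR recovered 75 of them with 4 false calls, and 18 of the 100 changed 4-fold, so a list without a call can hold changed genes. DESeq2 recovered 99 with 48 false calls. The interaction was not simulated. Up to 12 higher and 8 lower calls, and up to 4 genes of smallest p in each of 13 lists, were to be named. The wells, score and lists were chosen with earlier results of these data known. Wells were units, and doublets were not called, as each tube was sorted as 1 cell. RefSeq promoter windows were searched for exact letters. Transcripts without a GENCODE match, 4356 of 200206, kept their own identifiers. A summed level of the T cell markers is not reported here.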

Additional observations from a re-analysis of the deposited data

Results flagged for a closer look

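Samples far from the rest of their group were sought in 40 sets of wells, and 2 were found, where chance gives about 1 in 20. The low well 17 of kit 634444 had 1159370 counts, against 631999 in the nearest low well of that kit. It is also the low well with the least MCM2 to MCM7 mRNA, 114 TPM. The high well 17 of kit 634413 had a long non-coding RNA share of 4.54%, against 2.81% in the nearest high well of that kit. It is the well with the highest spindle sum, 5840 TPM, and the smallest histone share, 0.0218%. The part of either library in the differences was not tested beyond leaving each out in turn.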

How the results depend on the processing

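The count of genes called between high and low wells, 1 in the main comparison, was again 1 with other size factors, library size alone, log2 total counts or index block. It was 8 without the filter, 0 with at least 10 counts in 12 or more wells (185 at an unadjusted p under 0.05, KIF20A not tested), 21 by DESeq2, 0 by limma (572 unadjusted), 36 with the continuous score, 6 and 3 with wells split by log TPM or CPM, 2 and 2 at histone limits of 0.5% and 2%, 0 in kit 634413 alone (424 unadjusted), 8 in kit 634444 alone, 45 at the 500 TPM limit, and 1 to 2 with a well left out. At 500 TPM, chosen after seeing the data, the 45 calls became 11 with index block, 9 in kit 634413 alone, 14 in kit 634444 alone, and 18 to 35 with an upper well left out. The interaction count of 0 became 3 without the filter and 62 by DESeq2. The cause was not tested.

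Some differences with no call changed sign. The nuclear rRNA share was 0.279 points higher in high wells by TPM, the miscellaneous RNA share 0.0555 points higher by log TPM and 0.0806 at 500 TPM, and the snRNA and snoRNA share -0.0156 at 0.5% and -0.0357 at 500 TPM. In kit 634444 alone the log2 fold changes of TFDP1, LIN52 and MYC were 0.005, 0.96 and 0.16. In kit 634413 alone LMNB1 and SNRNP200 had -0.15 and -0.0231. E2F8 had -1.59 by CPM, -0.22 at 2% and -0.35 at 500 TPM. VIM had -0.057 by limma, -0.32 by CPM, -0.0197 at 500 TPM, -0.14 with index block and, with a well left out, -0.0352 (without well 4 of kit 634413) to 0.2302 (without well 14). No paired analysis was possible because each well is a separate cell and no number pairs a high with a low well.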
